A study of Mus musculus with 10 samples.

Results

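The genes described here are 10 homing, adhesion and chemokine receptor genes of leukemia stem cells: Itgam, Itgb2, Itgal, Itga4, Itgb1, Selplg, Cd44, Cxcr4, Cxcr2 and Ccr2. They were taken by symbol, for their roles in the retention of blood cells in bone marrow and their egress from it. All 10 were found among the 52171 genes of the table, and all 10 passed the filter on low values. RNA-seq had been done on leukemia stem cells from the bone marrow of mice whose acute myeloid leukemia was caused by the fusion oncogene MLL-AF9. The sort kept cells that stained for c-Kit, CD34 and CD16/32 but for neither Sca-1 nor lineage markers. The heterozygous group holds 5 libraries of genotype Nup214fl/+,Tie2-Cre, in which Cre recombinase under a promoter active in endothelial and blood cells can delete the floxed allele of the nucleoporin gene Nup214. The floxed control group holds 5 libraries of genotype Nup214fl/+ with no Cre. Both groups carried MLL-AF9 and a floxed Nup214 allele, so what Cre itself does and what Nup214 loss does cannot be told apart. The labels give no age and no mouse of origin for any library.

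Blood cells leave the circulation in steps. Selectins on vessel walls catch sialylated and fucosylated glycans on leukocyte mucins, chemokines then activate integrins, and integrins bind adhesion molecules of the vessel wall. In bone marrow, the chemokine CXCL12 acting on CXCR4 and the integrin of alpha 4 and beta 1 chains acting on VCAM-1 hold stem and myeloid cells in place, whereas CXCR2 in neutrophils and CCR2 in monocytes serve release into blood.

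Recovered depth was 24.6 to 39.1 M reads in the heterozygous libraries and 20.8 to 30.1 M reads in the control libraries. Yet 19541 to 25684 genes had a read in heterozygous libraries, against 26913 to 30277 in controls. The part of this difference in lower calls of genes with few reads, in the lists below as well, was not tested. Levels below are normalized reads, a read count that the authors divided by 1 factor per library. Nup214 had 376 to 602 normalized reads in heterozygous libraries and 811 to 984 in controls (log2 fold change -0.92, SE 0.130, limma adjusted p = 0.00144). On the first principal component of all tested genes, with 39.7% of the variance, heterozygous libraries ran from 6.46 to 132 and controls from -98.3 to -37.3. The heterozygous libraries did not stand together on the second component, with 15.6% of the variance: heterozygous libraries 1 and 2 were at -84.2 and -85.7, whereas heterozygous libraries 3, 4 and 5 were at 47.8, 27.4 and 33.3 and controls ran from -4.02 to 33.4. The summed level of 14 mature neutrophil markers was 115830 and 185617 normalized reads in heterozygous libraries 1 and 2, 3031137, 2546066 and 5181513 in heterozygous libraries 3, 4 and 5, and 1436546 to 2144987 in controls. Results on the members are therefore also given without heterozygous libraries 1 and 2, and without heterozygous libraries 3, 4 and 5. These libraries were picked by their own expression, so p-values and calls in those fits describe the split and are not independent tests of genotype. Of the genes of the sort gate, Kit was called lower in heterozygous libraries, at 673 to 1676 against 1822 to 2820 in controls (log2 fold change -0.89, SE 0.207, adjusted p = 0.0184) and missed the threshold without control library 1 (adjusted p = 0.05) and without heterozygous libraries 3, 4 and 5 (adjusted p = 0.0521). In that last fit the CD16 gene Fcgr3 was called higher (1.36, adjusted p = 0.00193), and without heterozygous libraries 1 and 2 Cd34 was called lower (-1.14, adjusted p = 0.026). Ly6a, which encodes Sca-1, averaged 127 ± 48.5 in heterozygous libraries and 216 ± 30.9 in controls (adjusted p = 0.0339), a call lost in 9 of 20 other fits. Cd3e, a marker of the excluded T cells, read at most 3.08 in heterozygous libraries and 9.17 in controls.

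Among the 10 members, limma called Selplg higher in heterozygous cells and called no member lower. That is 1 of 10 higher, against 5.0% of all 22458 tested genes, and 0 of 10 lower, against 8.01%. A call means a Benjamini-Hochberg adjusted p under 0.05 over all tested genes. At an unadjusted p under 0.05, 2 members were higher and 0 lower, against 10.5% and 21.6% of tested genes. The edgeR quasi-likelihood test called 1 higher and 0 lower, against 7.63% and 6.10% of the genes it tested, and DESeq2 called 2 and 0, against 4.06% and 4.70%. The DESeq2 shares are over 39816 genes with a p-value. They include genes with few reads that its own filter can leave without a call, so they are not like the other shares. The members' median log2 fold change was 0.19, and that of all tested genes was -0.19. The all-gene median depended on the genes kept and on the scaling. It was -0.02 with a filter of 5 in 5 libraries, -0.02 after quantile normalization, 0.00 with edgeR and -0.59 with DESeq2. The distance of the members from all genes is therefore not a fixed value. Over all genes, 1122 were called higher and 1798 lower, a split that moved to 780 and 517 after quantile normalization, to 1010 and 808 with edgeR, to 1120 and 1063 with a filter of 5 reads in 5 libraries and to 976 and 1028 with a pseudocount of 0.1.

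Selplg encodes PSGL-1, the sialomucin through which leukocytes bind P-selectin and, on inflamed or marrow vessels, E-selectin. It had 7756, 8229, 7237, 7433 and 11252 normalized reads in heterozygous libraries 1 to 5, against 5245, 3808, 5264, 5189 and 4086 in control libraries 1 to 5. All 5 heterozygous libraries lay above all 5 controls, as they did for 4.64% of tested genes. This held for 2 members, Selplg and Itgb1, and no member had all 5 heterozygous libraries below all 5 controls, against 6.67% of tested genes. The means were 8381 ± 1648 and 4718 ± 712 (SD, n = 5 each), so the heterozygous mean was 178% of the control mean. The log2 fold change was 0.82 (SE 0.147, 95% interval 0.51 to 1.14, limma adjusted p = 0.00547). In the 20 other fits tried it ranged from 0.58 after quantile normalization to 0.88 after TMM scaling, and the call held in all 20. It was 0.86 (adjusted p = 0.00367) without heterozygous libraries 1 and 2, and 0.77 (adjusted p = 0.00242) without heterozygous libraries 3, 4 and 5. Selplg (ENSMUSG00000048163.13) lies on chromosome 5 of mm10 from 113818536 to 113832644 on the minus strand, and no other annotated gene shares its exons.

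Of 18 tested genes for selectins and for the synthesis of their ligands, 5 were called higher and 1 lower in heterozygous cells, with a list median log2 fold change of 0.11. Among all tested genes, 5.0% were called higher and 8.01% lower. St3gal4, a sialyltransferase that caps selectin ligands, averaged 704 ± 215 in heterozygous libraries and 362 ± 26.7 in controls (log2 fold change 0.92, adjusted p = 0.00649). The call of St3gal4 held in all 20 other fits. Tpst1, one of the enzymes that sulfate tyrosines, as on PSGL-1, averaged 30.0 ± 7.75 and 11.2 ± 4.14 (log2 fold change 1.38, adjusted p = 0.0187) and lost its call without heterozygous libraries 3, 4 and 5 (adjusted p = 0.0518). B4galt1, a galactosyltransferase, fell to 3591 ± 362 in heterozygous libraries, against 4988 ± 435 in controls (log2 fold change -0.48, adjusted p = 0.0164). Its call was lost in 1 of 20 other fits (adjusted p = 0.0518). The list gave 5 higher and 1 lower without heterozygous libraries 1 and 2, and 3 higher and 4 lower without heterozygous libraries 3, 4 and 5. Of all genes, 9.33% were higher and 12.1% lower without heterozygous libraries 1 and 2, and 7.44% were higher and 8.22% lower without heterozygous libraries 3, 4 and 5.

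**Figure D1:**
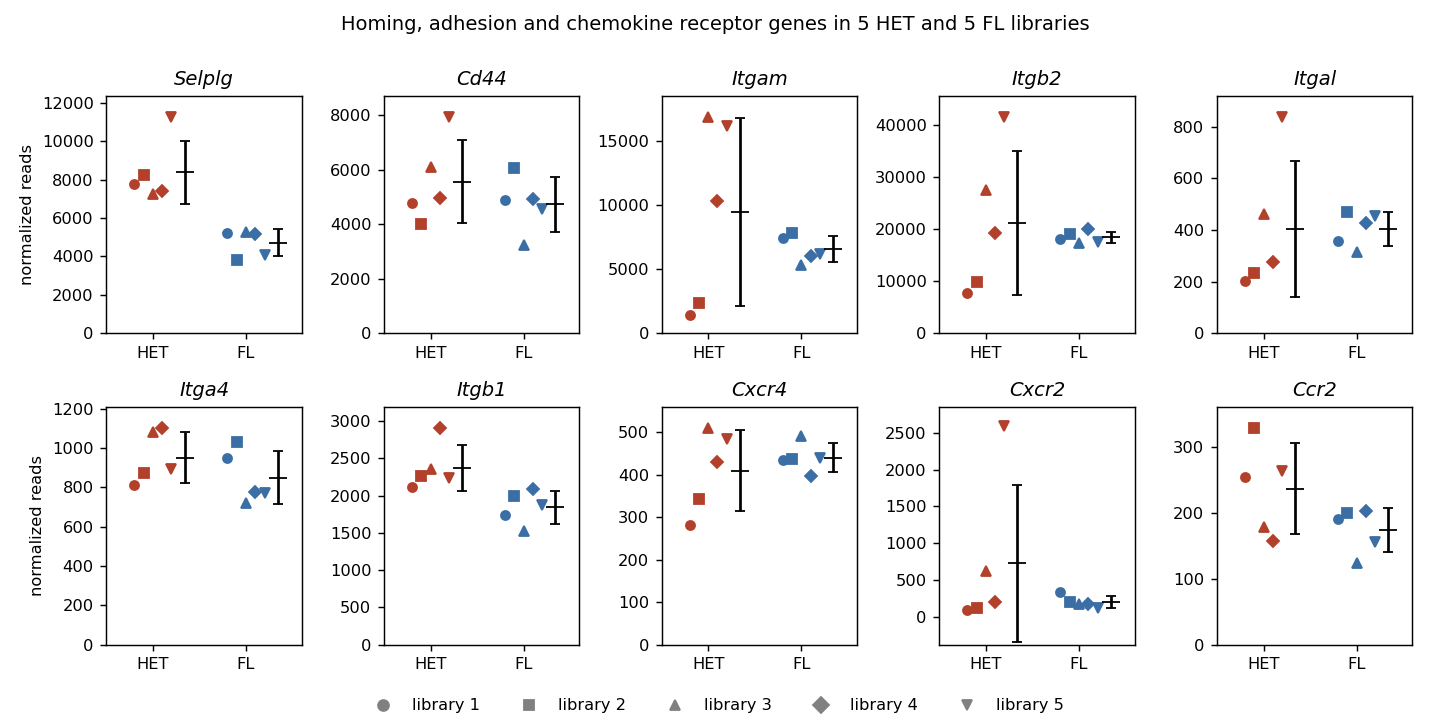
Normalized reads of the 10 genes in each library, with heterozygous (HET, red) left of floxed control (FL, blue); each symbol is a library number and black bars are mean ± SD of 5 libraries, which for Cxcr2 reaches below 0. Selplg and Itgb1 have all 5 HET libraries above all 5 FL libraries, whereas Itgam, Itgb2 and Itgal have HET libraries 1 and 2 below every FL library.

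The beta 2 integrin genes were not called with all libraries, and heterozygous libraries lay on both sides of the controls. Itgam encodes CD11b, the alpha chain of the integrin Mac-1 of neutrophils and monocytes, which binds ICAM-1, fibrinogen and complement. It had 1441, 2362, 16832, 10338 and 16129 normalized reads in heterozygous libraries 1 to 5, against 7440, 7792, 5340, 6011 and 6146 in control libraries 1 to 5. Heterozygous libraries 1 and 2 were below every control, and heterozygous libraries 3, 4 and 5 above every control. The highest heterozygous library held 11.7 times the reads of the lowest, and the highest control 1.46 times those of the lowest. With all libraries the log2 fold change was -0.05 (SE 0.581, 95% interval -1.30 to 1.20, adjusted p = 0.961). Without heterozygous libraries 1 and 2 it was 1.12 (SE 0.175, adjusted p = 0.000832), and without heterozygous libraries 3, 4 and 5 it was -1.81 (SE 0.179, adjusted p = 1.51e-05). Itgam (ENSMUSG00000030786.18, chromosome 7, 128062640 to 128118491, plus strand) shares 68.7% of its exon bases with the same-strand gene Gm49368, and how reads common to the pair were counted is not given in the sources used here. Gm49368 itself averaged 70.8 ± 64.8 in heterozygous libraries and 75.1 ± 23.5 in controls.

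Itgb2 encodes CD18, the beta chain that pairs with CD11b in Mac-1 and with CD11a in LFA-1. Its 7736, 9768, 27507, 19338 and 41537 normalized reads in heterozygous libraries 1 to 5 stood against 18127, 19040, 17435, 20055 and 17496 in control libraries 1 to 5. Heterozygous libraries 1 and 2 were again below every control, libraries 3 and 5 above every control, and library 4 within their range. The controls varied little, at a coefficient of variation of 6.05% against 65.5% in the heterozygous group. The log2 fold change was -0.07 (SE 0.364, 95% interval -0.85 to 0.72, adjusted p = 0.916) with all libraries, 0.61 (adjusted p = 0.0433) without heterozygous libraries 1 and 2, and -1.08 (adjusted p = 6.32e-05) without heterozygous libraries 3, 4 and 5. Itgb2 (ENSMUSG00000000290.13) spans 77530252 to 77565708 of chromosome 10, on the plus strand.

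Itgal encodes CD11a, the alpha chain of LFA-1, which binds ICAM-1 and ICAM-2. It had 202, 235, 462, 277 and 836 normalized reads in heterozygous libraries 1 to 5, against 358, 468, 313, 427 and 455 in control libraries 1 to 5. Heterozygous libraries 1, 2 and 4 were below every control, library 3 among them and library 5 above them all. The group means were 403 ± 262 and 404 ± 66.1 (SD, n = 5 each; log2 fold change -0.20, 95% interval -0.88 to 0.48, adjusted p = 0.692). The gene was called lower without heterozygous libraries 3, 4 and 5 (-0.87, adjusted p = 0.0041) and was not called without heterozygous libraries 1 and 2 (0.25, adjusted p = 0.532). Itgal (ENSMUSG00000030830.18) is on chromosome 7, 127296260 to 127335138, plus strand.

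The balance between alpha and beta chains was compared as the log2 ratio of normalized reads within a library, which does not depend on library scaling. The Itgam to Itgb2 ratio was -2.42, -2.05, -0.71, -0.90 and -1.36 in heterozygous libraries 1 to 5 and -1.74 to -1.28 in controls, with 2 heterozygous libraries below every control and 2 above. The group difference was 0.02 (two-sided exact permutation test over 252 assignments, p = 0.944). For Itgam over Itgal, the chains that compete for Itgb2, heterozygous libraries 1 to 5 gave 2.83, 3.32, 5.18, 5.22 and 4.27, and controls 3.75 to 4.37 (difference 0.15, exact permutation p = 0.738). Itgal over Itgb2 ranged from -6.12 to -5.25 in heterozygous libraries and from -5.79 to -5.26 in controls (difference -0.13, exact permutation p = 0.50). Of the 5 ratios compared, none passed after Benjamini-Hochberg adjustment, where the smallest adjusted value was 0.635, and 0 had an unadjusted p under 0.05.

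Promoter sequence is shown for Itgam and Cxcr2, the members that varied most among heterozygous libraries, and for Itgb1, the member beside Selplg whose groups did not overlap. Each line gives the 250 bases before the RefSeq transcription start in GRCm38.p6, the mm10 build, 5′ to 3′ on the gene's strand. Capitals mark GAGGAA on either strand, the purine-rich core bound by the myeloid transcription factor PU.1.
Itgam, chr7:128062390-128062639, plus strand: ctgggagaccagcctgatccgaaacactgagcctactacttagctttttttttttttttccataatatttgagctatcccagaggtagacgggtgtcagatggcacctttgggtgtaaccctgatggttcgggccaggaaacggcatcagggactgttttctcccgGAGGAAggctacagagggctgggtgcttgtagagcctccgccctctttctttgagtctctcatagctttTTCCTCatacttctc
Cxcr2, chr1:74153744-74153993, plus strand: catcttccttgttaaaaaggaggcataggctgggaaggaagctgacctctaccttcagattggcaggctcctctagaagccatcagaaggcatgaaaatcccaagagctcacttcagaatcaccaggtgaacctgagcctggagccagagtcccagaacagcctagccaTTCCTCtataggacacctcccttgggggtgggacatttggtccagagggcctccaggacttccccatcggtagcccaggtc
Itgb1, chr8:128685404-128685653, plus strand: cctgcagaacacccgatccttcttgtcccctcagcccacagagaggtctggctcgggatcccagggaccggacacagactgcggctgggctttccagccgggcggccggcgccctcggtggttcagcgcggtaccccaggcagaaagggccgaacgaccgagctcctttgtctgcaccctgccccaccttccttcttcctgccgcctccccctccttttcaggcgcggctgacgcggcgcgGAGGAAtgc
Of the 10 members, 7 matched the promoter table. GAGGAA was found 2 times before Itgam, first base 84 and 15 bases before the start, 1 time before Cxcr2, at 81, and 1 time before Itgb1, at 9. Cd44 had 2 matches, and Itga4, Cxcr4 and Ccr2 had 0. Of 32851 promoters of the same length, 23.3% held the motif. The RUNX core TGTGGT, searched on both strands, was present before Itga4 and in 14% of all promoters. A match describes these letters and does not show binding.

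**Figure D2:**
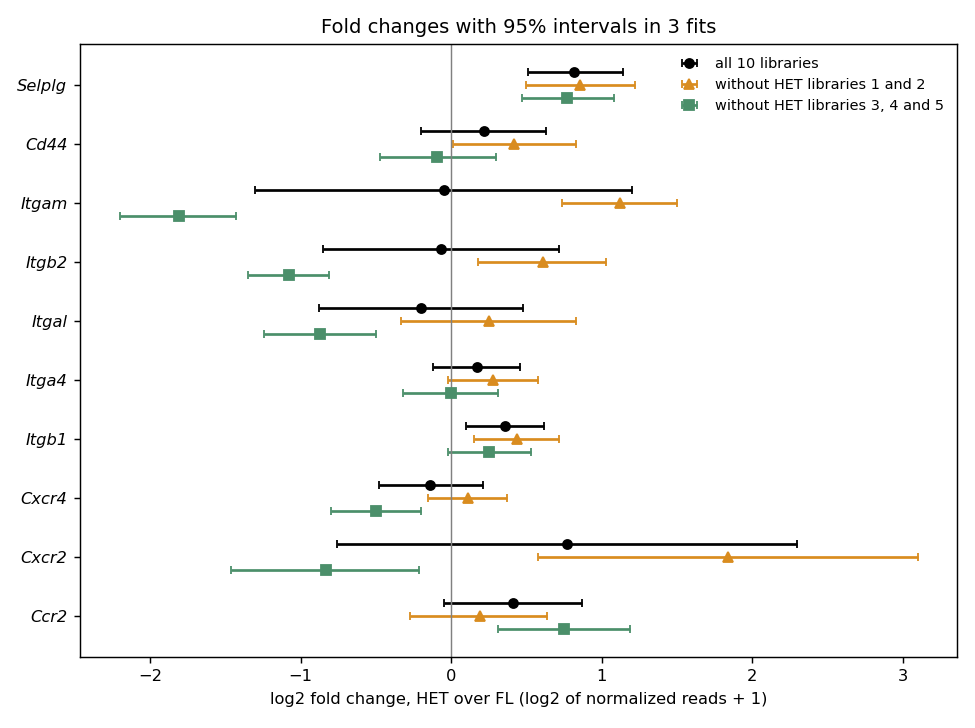
Log2 fold changes of heterozygous over control (x axis, log2 of normalized reads + 1) with 95% intervals for the 10 genes, with all 10 libraries (black circles), without HET libraries 1 and 2 (orange triangles) and without HET libraries 3, 4 and 5 (green squares). Selplg lies between 0.77 and 0.86 in all 3 fits, whereas Itgam runs from -1.81 to 1.12.

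Of 31 tested genes of integrin activation and adhesion signalling, 3 were called higher and 2 lower, with a median log2 fold change of 0.06. The shares over all tested genes were 5.0% and 8.01%. Fyb, the adaptor ADAP that links receptors to integrin activation, averaged 266 ± 229 in heterozygous libraries and 37.3 ± 9.24 in controls (log2 fold change 2.35, adjusted p = 0.0128, called in all 20 other fits). Tln2, a talin that couples integrins to actin, averaged 197 ± 61.2 and 535 ± 75.2 (log2 fold change -1.49, adjusted p = 0.00126, also called in all 20). Parvg, a parvin of blood cells, was higher by 0.45 on the log2 scale (adjusted p = 0.0255), with the call lost in 7 of 20 other fits at adjusted p of 0.0507 to 0.303. Fermt2, a kindlin at 2.1 ± 1.76 and 9.07 ± 3.28 normalized reads, had -1.85 (adjusted p = 0.0272), lost in 7 of 18 other fits. Without heterozygous libraries 1 and 2 this list gave 9 higher and 2 lower, and without heterozygous libraries 3, 4 and 5 it gave 4 higher and 7 lower. Over all genes the shares were 9.33% and 12.1% in the first of these fits, and 7.44% and 8.22% in the second.

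Itgb1 encodes CD29, the beta 1 chain that pairs with many alpha chains and, with alpha 4, forms VLA-4, the receptor for VCAM-1 and fibronectin in marrow. It had 2120, 2257, 2352, 2902 and 2236 normalized reads in heterozygous libraries 1 to 5, against 1742, 1988, 1523, 2094 and 1878 in control libraries 1 to 5. All 5 heterozygous libraries lay above all 5 controls. The means were 2373 ± 307 and 1845 ± 222 (SD, n = 5 each), with a log2 fold change of 0.36 (SE 0.12, 95% interval 0.10 to 0.62), and the gene was not called (limma adjusted p = 0.0614). It was called after TMM scaling (adjusted p = 0.041), with DESeq2 (adjusted p = 0.0438) and without heterozygous library 1 (adjusted p = 0.0478). It was also called when heterozygous libraries 1 and 2 were both left out (adjusted p = 0.0317). After quantile normalization its log2 fold change was 0.19 (adjusted p = 0.375). Itgb1 (ENSMUSG00000025809.15) is on chromosome 8, 128685654 to 128733200, plus strand.

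Itga4 encodes CD49d, the alpha 4 chain of VLA-4. Its reads were 809, 873, 1080, 1099 and 893 in heterozygous libraries 1 to 5, against 949, 1030, 721, 774 and 769 in control libraries 1 to 5. The groups overlapped, with 2 heterozygous libraries above every control. The log2 fold change was 0.17 (SE 0.134, 95% interval -0.12 to 0.46, adjusted p = 0.407). The Itga4 to Itgb1 log2 ratio averaged -1.32 ± 0.115 in heterozygous libraries and -1.12 ± 0.233 in controls (difference -0.20, exact permutation p = 0.127, adjusted p = 0.635 over the 5 ratios). Itga4 (ENSMUSG00000027009.18, chromosome 2, 79255426 to 79333123, plus strand) overlaps the opposite-strand gene Cerkl over 8.04% of its exon bases, and without strand information their shared reads cannot be told apart.

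Of 20 other integrin subunits tested, 0 were called higher and 5 lower, with a median log2 fold change of -0.46. Among all tested genes, 5.0% were called higher and 8.01% lower. Itga6, the alpha 6 chain of laminin receptors, averaged 264 ± 45.5 in heterozygous libraries and 423 ± 51.5 in controls (log2 fold change -0.69, adjusted p = 0.0116), and Itga1, a collagen receptor chain, averaged 56.5 ± 22.3 and 161 ± 80.5 (-1.45, adjusted p = 0.0148). Both calls held in all 20 other fits. Itgb3, the beta chain of the vitronectin receptor, averaged 101 ± 17.4 and 165 ± 34.8 (-0.69, adjusted p = 0.0297) and lost its call in 8 of 20 other fits, at adjusted p of 0.053 to 0.126. Itgb6, an epithelial chain, was near the limit of detection at 0.806 ± 0.794 and 5.14 ± 2.59 (-1.80, adjusted p = 0.0248, lost in 7 of 18 other fits). Of the 20, 2 were higher and 4 lower without heterozygous libraries 1 and 2, and 0 were higher and 4 lower without heterozygous libraries 3, 4 and 5. Among 19 other leukocyte adhesion molecules, 0 were higher and 2 lower, namely the tetraspanin genes Cd81 (5398 ± 836 in heterozygous libraries and 10578 ± 1139 in controls, adjusted p = 0.000905, called in all 20 other fits) and Cd63 (log2 fold change -0.70, adjusted p = 0.0353, lost in 10 of 20). This list gave 5 higher and 3 lower without heterozygous libraries 1 and 2, and 1 higher and 6 lower without heterozygous libraries 3, 4 and 5. Over all genes the shares were 9.33% and 12.1% in the first of these fits, and 7.44% and 8.22% in the second.

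Cd44 encodes the receptor for hyaluronan that also carries selectin-binding glycans and marks many leukemia stem cells. It had 4763, 4001, 6087, 4968 and 7920 normalized reads in heterozygous libraries 1 to 5, against 4900, 6043, 3227, 4940 and 4547 in control libraries 1 to 5. The groups overlapped, with heterozygous libraries 3 and 5 above every control and none below. The log2 fold change was 0.22 (SE 0.193, 95% interval -0.20 to 0.63, adjusted p = 0.457), and it was -0.03 after quantile normalization. It was 0.42 (adjusted p = 0.126) without heterozygous libraries 1 and 2 and -0.09 (adjusted p = 0.771) without heterozygous libraries 3, 4 and 5. Cd44 (ENSMUSG00000005087.17) lies on chromosome 2, 102811141 to 102901665, minus strand. Of 14 tested ligands and partners of CD44, 2 were called higher and 1 lower, with a median of -0.08. The shares over all tested genes were 5.0% and 8.01%. Ank3, a membrane adaptor ankyrin, averaged 8.71 ± 2.82 in heterozygous libraries and 35.0 ± 14.8 in controls (log2 fold change -1.84, adjusted p = 0.00696, called in all 20 other fits). Spp1, which encodes the CD44 and integrin ligand osteopontin, averaged 476 ± 334 and 85.3 ± 27.0 (2.07, adjusted p = 0.0254) and lost its call in 6 of 20 other fits, and Srgn, the granule proteoglycan serglycin, had 0.60 (adjusted p = 0.0387) and lost it in 9 of 20.

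Cxcr4 encodes the receptor for CXCL12 that retains stem cells and neutrophils in marrow. It had 282, 342, 509, 430 and 483 normalized reads in heterozygous libraries 1 to 5, against 434, 438, 492, 398 and 440 in control libraries 1 to 5. Heterozygous libraries 1 and 2 were below every control, library 3 above every control and the other two among them. The means were 409 ± 95.2 and 440 ± 33.7 (SD, n = 5 each; log2 fold change -0.14, 95% interval -0.48 to 0.21, adjusted p = 0.584). Without heterozygous libraries 3, 4 and 5 the gene was called lower (-0.50, adjusted p = 0.0277), and without heterozygous libraries 1 and 2 it was not called (0.11, adjusted p = 0.554). Cxcr4 (ENSMUSG00000045382.6) occupies 128588199 to 128592293 of chromosome 1, minus strand.

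Cxcr2 encodes the receptor for neutrophil-attracting CXC chemokines such as CXCL1 and CXCL2. Of the members it varied most: it had 94.5, 121, 628, 199 and 2592 normalized reads in heterozygous libraries 1 to 5, against 336, 210, 172, 182 and 117 in control libraries 1 to 5. Heterozygous library 5 held 27.4 times the reads of library 1, library 1 was below every control and libraries 3 and 5 were above every control. The log2 fold change was 0.77 (SE 0.712, 95% interval -0.76 to 2.30, adjusted p = 0.478), and without heterozygous library 5 it was 0.02. On recovered reads it was 1.78 with edgeR (adjusted p = 0.168) and 1.84 with DESeq2 (adjusted p = 0.128). It was 1.84 (adjusted p = 0.0395) without heterozygous libraries 1 and 2, and -0.83 (adjusted p = 0.0674) without heterozygous libraries 3, 4 and 5. The Cxcr2 to Cxcr4 log2 ratio was -1.57, -1.49, 0.30, -1.11 and 2.42 in heterozygous libraries 1 to 5, and -1.91 to -0.37 in controls (difference 0.90, exact permutation p = 0.325, adjusted p = 0.813 over the 5 ratios). Cxcr2 (ENSMUSG00000026180.8) is on chromosome 1, 74153989 to 74161246, plus strand.

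Ccr2 encodes the receptor for CCL2 through which monocytes leave marrow. It had 254, 328, 179, 157 and 264 normalized reads in heterozygous libraries 1 to 5, against 191, 199, 124, 202 and 155 in control libraries 1 to 5. Here heterozygous libraries 1, 2 and 5 were above every control and libraries 3 and 4 within their range. The log2 fold change was 0.41 (SE 0.214, 95% interval -0.05 to 0.87, adjusted p = 0.2). It was called higher without heterozygous libraries 3, 4 and 5 (0.75, adjusted p = 0.0256) and not called without heterozygous libraries 1 and 2 (0.19, adjusted p = 0.550). Ccr2 (ENSMUSG00000049103.14) spans 124101950 to 124113557 of chromosome 9, plus strand.

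Heterozygous libraries 1 and 2 thus lay below every control and below heterozygous libraries 3, 4 and 5 for 4 of the 10 members, Itgam, Itgb2, Itgal and Cxcr4, as they did for 7.56% of all tested genes. This placement was counted after the values were seen, and the libraries left out in the fits below were picked by their own expression. Without heterozygous libraries 1 and 2, 5 members were called higher and 0 lower, against 9.33% and 12.1% of all genes. Without heterozygous libraries 3, 4 and 5, 2 members were called higher and 4 lower, against 7.44% and 8.22%. Selplg was the member called higher in both of these fits.

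Of 15 other chemokine receptors tested, 0 were called higher and 2 lower, Xcr1 (4.61 ± 2.81 in heterozygous libraries and 16.1 ± 5.64 in controls, adjusted p = 0.0265, lost in 6 of 19 other fits) and Ackr4 (log2 fold change -1.04, adjusted p = 0.0458, lost in 15 of 20), and the median log2 fold change was -0.43. Of 16 receptors for other chemoattractants, 0 were called higher and 2 lower. For these lists and those that follow, the shares over all tested genes were 5.0% higher and 8.01% lower. Ltb4r1, the leukotriene B4 receptor gene, fell to 5224 ± 1188 in heterozygous libraries, against 13781 ± 1384 in controls (log2 fold change -1.42, adjusted p = 0.000201), and Gpr183, an oxysterol receptor that guides leukocytes, to 28.3 ± 11.5, against 73.8 ± 18.3 (-1.39, adjusted p = 0.00977), both called in all 20 other fits. Among 11 tested ligands of the members, Mif, a cytokine that binds CXCR4, CXCR2 and CD74, was called higher (6031 ± 2306 and 3354 ± 550, adjusted p = 0.0472), a call lost in 14 of 20 other fits. Of 33 genes of receptor signalling and desensitization, 5 were higher and 2 lower. They included Rgs10, at 642 ± 279 in heterozygous libraries and 173 ± 48.7 in controls (log2 fold change 1.81, adjusted p = 0.00463), and Rgs18, at 1509 ± 421 and 767 ± 112 (0.95, adjusted p = 0.00723), which encode proteins that shut off G protein signals and were called in all 20 other fits. Rgs14 (0.72, adjusted p = 0.0174) lost its call without heterozygous libraries 3, 4 and 5 (adjusted p = 0.102), and the GTPase gene Rac1 (0.50, adjusted p = 0.018) lost it without control library 1 (adjusted p = 0.0523) and after quantile normalization (adjusted p = 0.161). Of 15 proteases and inhibitors linked to egress, 1 was higher, Ctsg, cathepsin G (0.73, adjusted p = 0.0384, lost in 12 of 20 other fits), and 1 lower, Dpp4, the peptidase that inactivates CXCL12 (-1.72, adjusted p = 0.0463, lost in 16 of 20). Without heterozygous libraries 1 and 2 the signalling list gave 13 higher and 0 lower, the protease list 6 and 0 and the chemoattractant list 5 and 2. Without heterozygous libraries 3, 4 and 5 the same lists gave 5 higher and 10 lower, 1 and 7, and 0 and 9. Over all genes the shares were 9.33% and 12.1% in the first of these fits, and 7.44% and 8.22% in the second.

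**Figure D3:**
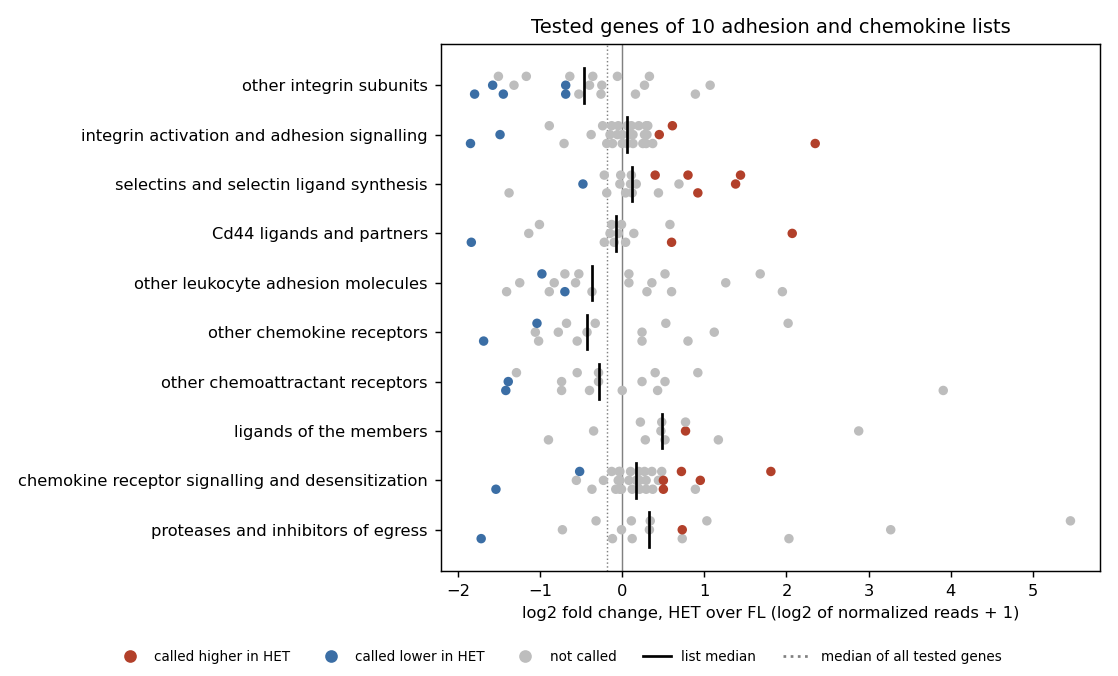
Log2 fold changes of heterozygous over control (x axis) for the tested genes of 10 related lists, called higher in red, called lower in blue and not called in grey, with black bars for list medians and a dotted line for the median of all tested genes, -0.19. The selectin list has 5 called genes to the right and 1 to the left, and the list of other integrin subunits has 0 and 5.

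Markers of other cell types moved with several members. The summed level of 14 monocyte and macrophage markers was 493950, 370949 and 738506 in heterozygous libraries 3, 4 and 5, which were high in Itgam, 89073 and 111807 in heterozygous libraries 1 and 2, and 131762 to 172417 in controls. Lyz2, the lysozyme gene that neutrophils also express, made up most of the high sums, at 444441, 303628 and 664560 in heterozygous libraries 3, 4 and 5. The other 13 genes summed to 49509 to 96768 in heterozygous libraries and 79667 to 114918 in controls. Ly6c2 made up most of these sums in every control and in heterozygous libraries 1 and 2, so there they describe mainly that gene. It was also the largest part in heterozygous library 5, at 39853 of 73947. In heterozygous libraries 3, 4 and 5, F13a1 made up 25572, 37343 and 27350 of the sums. Of the 14, 6 were called higher (Cd68, C1qc, C1qa, F13a1, Mrc1 and C1qb) and 1 lower (Ly6c2, at 18429 to 88057 against 74869 to 111112 in controls, adjusted p = 0.0405, lost in 12 of 20 other fits). Cd68, C1qa and F13a1 lay above every control in all 5 heterozygous libraries, as Selplg did. Cd68, a lysosomal protein of macrophages, had 2148 to 2743 normalized reads in heterozygous libraries and 503 to 809 in controls (log2 fold change 1.94, adjusted p = 7.56e-06), and its call held in all 20 other fits. C1qa, a complement subunit made by macrophages, had 80.1 to 243 and 21.3 to 73.1 (adjusted p = 0.0156), and F13a1, a coagulation factor chain of monocytes and platelets, had 2758 to 37343 and 904 to 2668 (adjusted p = 0.0229). Without heterozygous libraries 3, 4 and 5, C1qa (0.92, adjusted p = 0.124) and F13a1 (0.72, adjusted p = 0.0957) were not called, and F13a1 was also not called without control library 1 or control library 3 (lost calls at adjusted p of 0.0514 to 0.0957). Adgre1 and Csf1r, markers of mature macrophages, had log2 fold changes of -0.0026 and -0.07 and were not called. The erythroid sum over 9 genes was 2370, 2754 and 2248 in heterozygous libraries 3, 4 and 5, 6.68 and 115 in heterozygous libraries 1 and 2, and 14.8 to 74.4 in controls. Of the 14 neutrophil markers, 1 was called higher and 0 lower with all libraries, 12 were higher and 1 lower without heterozygous libraries 1 and 2, and 0 were higher and 11 lower without heterozygous libraries 3, 4 and 5. In the same order, the shares over all genes were 5.0% and 8.01%, 9.33% and 12.1%, and 7.44% and 8.22%. Heterozygous library 5, highest for Cxcr2, Itgb2, Itgal and Selplg, had the highest neutrophil sum and the highest Lyz2. T and NK cell markers summed to 7.36 to 43.1 in heterozygous libraries and 10.2 to 30.1 in controls, dendritic cell markers to 19.1 to 49.2 and 23.0 to 52.4, endothelial markers to 65.8 to 171 and 88.7 to 172, and stromal markers to 18.1 to 31.7 and 20.3 to 50.6. Sums for B cells were 556 to 943 in heterozygous libraries and 1071 to 1359 in controls, for eosinophils, basophils and mast cells 195 to 869 and 160 to 342, and for megakaryocytes and platelets 38.2 to 292 and 183 to 292. Sums that overlapped held genes that differed. Endothelial Tie1 had 125, 108 and 66.1 in heterozygous libraries 3, 4 and 5, against at most 10.5 in controls, and was not called (limma adjusted p = 0.131). Eng of the same list was called lower (43.2 ± 14 against 89 ± 35.1, adjusted p = 0.0394). So was platelet Gp1bb (6.73 ± 4.71 against 58.8 ± 31, adjusted p = 0.00778). In no list was a marker at 0 in all libraries. The part of any of these cells in the levels of the members was not tested, and in bulk RNA a change in the number of such cells cannot be told apart from a change in RNA per cell. Selplg was called higher without heterozygous libraries 3, 4 and 5, in which the neutrophil and erythroid sums were high, and in that fit Cd68 was called higher as well (2.06, adjusted p = 1.63e-06).

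**Figure D4:**
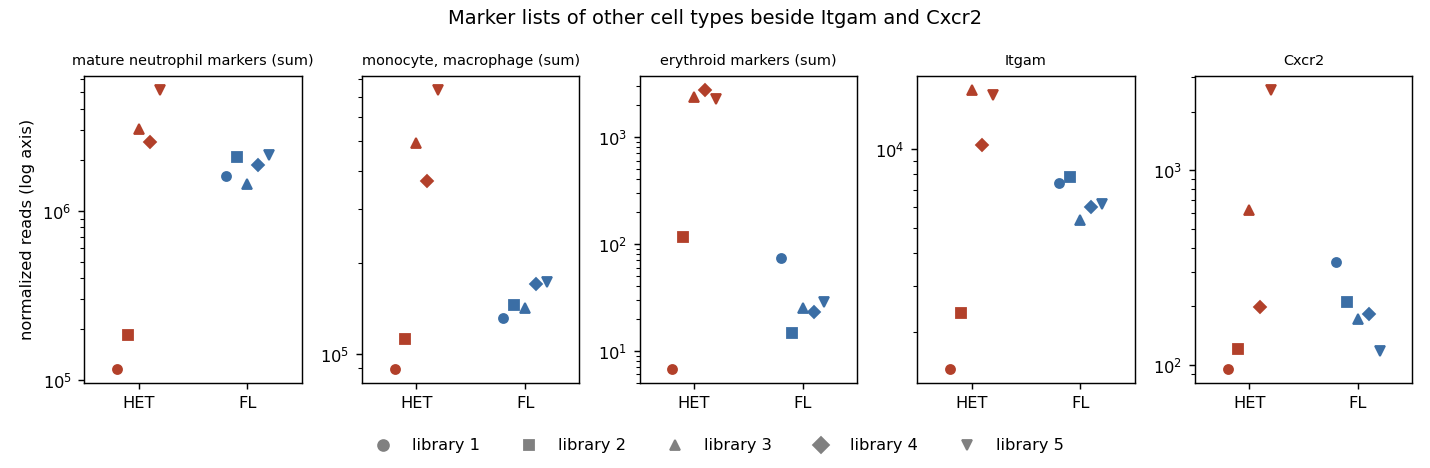
Normalized reads on log axes for the summed markers of mature neutrophils, of monocytes and macrophages and of erythroid cells, and for Itgam and Cxcr2, with heterozygous (HET) left of control (FL) and a symbol for each library number. HET libraries 3, 4 and 5 lie above HET libraries 1 and 2 in every panel, and the neutrophil sum is 115830 in HET library 1 and 5181513 in HET library 5.

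Levels of different members were compared per kilobase of annotated exon. In heterozygous libraries the order of means was Itgb2 at 6939 normalized reads per kb, Selplg at 1962, Itgam at 1875, Cd44 at 819, Itgb1 at 582, Cxcr2 at 238, Cxcr4 at 226, Itga4 at 68.0, Itgal at 61.3 and Ccr2 at 35.0. Every pair of neighbours in that order overlapped in range, except Cxcr4 and Itga4. In control libraries the order was Itgb2 at 6039, Itgam at 1303, Selplg at 1104, Cd44 at 698, Itgb1 at 452, Cxcr4 at 244, Cxcr2 at 66.7, Itgal at 61.5, Itga4 at 60.7 and Ccr2 at 25.8. Among controls Itgb2 stood clear of Itgam, Itgb1 of Cxcr4, Cxcr4 of Cxcr2, and Itga4 of Ccr2, while the other neighbours overlapped. Exon lengths are those of all annotated transcripts together, from 1.81 kb for Cxcr4 to 13978 bases for Itga4, so levels of genes with long unused exons are understated. Itgam shares 68.7% of its exon bases with Gm49368. Its level would also be understated if shared reads were left out, so its place in both orders is uncertain.

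For each member the 3 genes with the most similar profile over the 10 libraries were found, by the root mean square difference of log2 levels centred on each gene's mean, among 9498 named genes with a mean of at least 50 normalized reads. Itgb2 was nearest to Pilrb2, Pilrb1 and Fmo5, at differences of 0.10, 0.13 and 0.14 beside its own spread of 0.64. Itgam was nearest to Pilra, Rin2 and Vcl (0.18, 0.21 and 0.25 beside a spread of 1.05), and Itgal to Dgat2, Sgpl1 and Degs1 (0.17, 0.22 and 0.23 beside 0.56). Selplg was nearest to Fxyd5, Cst3 and Themis2 (0.14, 0.16 and 0.17 beside 0.47). Cxcr2 had Mxd1, G0s2 and Trpm2 at 0.44, 0.54 and 0.55, beside a spread of 1.35. Cxcr4 was nearest to Usp46, Tmem164 and Ptk2b (0.08, 0.09 and 0.10 beside 0.24), Ccr2 to Tars2, Arhgef3 and Mydgf (0.17, 0.17 and 0.18 beside 0.39) and Cd44 to Mdn1, Rhot2 and Adat2 (0.09, 0.14 and 0.15 beside 0.34). Itga4 was nearest to Zfp169, Fndc3a and Zmym6 (0.08, 0.08 and 0.09 beside 0.20), and Itgb1 to Ttc3, Sephs1 and Vps26a (each 0.09 beside 0.24). These likenesses describe 10 libraries that share the split among heterozygous samples.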

How the data were processed

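RNA of sorted cells was reverse-transcribed and amplified by Geo-seq, per the labels' protocols. The labels name no molecular identifiers, so precision from depth covers counting error only. Bowtie 0.12.9, HTSeq, Cufflinks 2.1.1, DESeq2 and the build mm10 appear in the submitters' processing notes, with no role or order. The sources used here give neither the annotation nor the strand setting. The deposited signal was each gene's reads over 1 factor per library, since values were whole multiples of 1 step: within 0.01, whole reads were recovered for at least 99.869% of values above 0 in each library. Limma 3.58.1 (R 4.3.3) with an intensity trend was fitted to log2(value + 1) for 22458 genes that reached 1 in 5 or more libraries, with genotype as the only term and Benjamini-Hochberg adjustment over all of them. Fold changes on this scale understate changes of low genes. EdgeR 4.0.16 and DESeq2 1.42.0 were run on recovered reads. Ratios were compared by exact permutation over libraries (scipy 1.17.1), with p adjusted over the 5. Coordinates and exon lengths came from GENCODE M21, where 49806 of 52171 symbols were found, and promoters from RefSeq (GRCm38.p6).

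Libraries of a group are not said to come from separate mice, so p-values measure the spread between these libraries, which may be technical. No pair of libraries in a group differed by counting error alone (chi-square of at least 15.5 per degree of freedom). This does not exclude repeats made from the same RNA or mouse. Members, lists and alternatives were chosen with earlier results of these data known. Named genes were the members, Nup214, up to 4 called genes with the smallest p per list and the 3 most similar genes per member, and some genes the rule names are not reported here. Tests were checked on simulated counts with known changes, the same dispersion for every gene and no split among heterozygous libraries. The check therefore does not cover such a split. Alternatives were quantile and TMM scaling, a pseudocount of 0.1, a stricter filter (5 in 5 libraries) and none, a replicate block, both count tests, and leaving out libraries.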

Additional observations from a re-analysis of the deposited data

Results flagged for a closer look

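In 30 groups of 5 libraries (15 measures in each genotype), 3 had a library whose gap to its nearest neighbour exceeded 0.71 of the group's range, the critical value of Dixon's test. Chance flags about 1 in 20 such groups. Selplg stood at 11252 normalized reads in heterozygous library 5, a gap of 0.753 of the range, and its log2 fold change without that library was 0.71 (adjusted p = 0.00861). Cxcr2 stood at 2592 normalized reads in heterozygous library 5, a gap of 0.787 of the range, and its log2 fold change without that library was 0.02. The Itga4 to Itgb1 log2 ratio stood at -1.12 in heterozygous library 3, the highest of its group, a gap of 0.722 of the range.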

How the results depend on the processing

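Selplg and Nup214 kept their direction and call in all 20 other fits. With 1 library left out at a time, 1 to 2 members were called higher and 0 to 0 lower. The count of members called higher was 2 with TMM scaling, 2 with DESeq2, 5 without heterozygous libraries 1 and 2 and 2 without heterozygous libraries 3, 4 and 5, where 4 were called lower. Some members not called changed sign. Itgam was at 0.01 with TMM, 0.49 with edgeR, 0.53 with DESeq2, 1.12 without heterozygous libraries 1 and 2 and -0.41 to 0.48 with 1 library left out. Itgb2 was at 0.16 with edgeR, 0.20 with DESeq2, 0.61 without heterozygous libraries 1 and 2 and -0.38 to 0.23 with 1 library left out. Without heterozygous libraries 1 and 2, Itgal was at 0.25 and Cxcr4 at 0.11. Without heterozygous libraries 3, 4 and 5, Cd44 was at -0.09, Cxcr2 at -0.83 and Itga4 at -0.0004, and the ratio differences were -0.34 for Cxcr2 over Cxcr4, 0.21 for Itgal over Itgb2, -0.94 for Itgam over Itgal and -0.73 for Itgam over Itgb2. Cd44 was at -0.03 after quantile normalization. With 1 library left out, Itgam over Itgb2 ran from -0.18 to 0.25 and Itgam over Itgal from -0.12 to 0.48. The cause was not tested. Over all genes, 828 were called higher and 1119 lower with no filter, 1403 and 1572 with TMM, 1617 and 1873 with DESeq2. Leaving out heterozygous libraries 1 and 2 gave 2095 and 2707, and leaving out heterozygous libraries 3, 4 and 5 gave 1671 and 1846. Without control library 1 the calls were 559 and 599, and without control library 5 they were 653 and 762. Libraries of the same number shared only that number: their deviations from the group means correlated at 0.0817, 0.0108, -0.0124, -0.0905 and -0.065 for numbers 1 to 5, and 1 of 5 numbers correlated best with its own. With the replicate block, 703 genes were called higher and 945 lower, 1 member was higher and 0 lower, and the adjusted p was 0.0263 for Selplg and 0.00612 for Nup214. B4galt1 was not called with the block (adjusted p = 0.0518). With 5 libraries a group the smallest exact p is 0.00794, and with 2 against 5 it is 0.0952, so no ratio could pass there.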
